A study of Mus musculus with 16 samples.

Results

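Control muscle of the KPP cohort was compared with control muscle of the LLC cohort, without tumour in either. The members were the 4 libraries titled KPP control 1 and 2 and LLC control 1 and 2, of 16 libraries in the series, and they were chosen by title alone. Each library held total RNA, depleted of ribosomal RNA, from snap-frozen tibialis anterior, a fast-twitch muscle of the lower leg. The series set cachectic against control muscle in 4 mouse models of cancer cachexia, loss of muscle and fat during tumour growth, with 2 libraries per group. KPP is known as an inducible pancreatic tumour model with a Cre recombinase driven from the Ptf1a locus, and LLC is a transplanted Lewis lung carcinoma line. The KPP control libraries (n = 2) and the LLC control libraries (n = 2) carry the strain label C57BL/6J and the treatment entry none. The labels do not give age, sex, genotype, time of day or feeding state for either control group, nor whether the KPP controls carried any of that model's alleles. They also do not say that the 2 libraries of a group came from separate animals, so all p-values rest on the spread between these libraries, which may be partly technical. Cohort, and anything that differed between cohorts in housing, age or handling, cannot be told apart here.

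Skeletal muscle RNA is known to vary between healthy mice with the time of day, with feeding, with circulating glucocorticoids, with growth stage and with the amount of connective tissue taken with the muscle. The circadian clock is a loop in which ARNTL and CLOCK activate the Per, Cry and Nr1d genes, whose products repress ARNTL and CLOCK or the Arntl gene, so that Arntl and Per2 transcripts peak at opposite times of day. Fibrillar collagen is made mostly by fibroblasts and falls in muscle as growth ends, and genes of fatty acid use rise in fasting.

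The KPP control libraries held 37856112 and 28584279 reads over the listed genes, against 33539424 and 37735910 reads in the LLC control libraries. Values beside a gene are log2 CPM (reads per 1000000 of those reads) unless another scale is named, and are not per length, so levels are not compared between genes. A difference is the mean of the KPP controls minus the mean of the LLC controls on the log2 scale and is given ± SE (n = 2 per cohort). Each test was a two-sided limma test on the 8 control libraries, with Benjamini-Hochberg adjustment over 11934 genes, and a gene was called at an adjusted p under 0.05. The replicates correlated across genes at 0.991 in KPP controls and 0.993 in LLC controls, and neither pair agreed within counting noise (chi-squared per degree of freedom 22.6 and 13.9). Defining transcripts of fast muscle were abundant in both cohorts. Myh4, the myosin heavy chain of the fastest fibres, stood at 15.77 and 15.69 in KPP controls, against 15.71 and 15.75 in LLC controls.

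Of the 11934 genes, 394 were called (3.3%), 348 of them higher in KPP controls (2.92%) and 46 lower (0.385%). The median difference over all genes was 0.11 and 72.1% of genes lay above 0, so most genes stood slightly higher in the KPP libraries. KPP control 2 had a higher median log2 value (3.80) than the other 7 control libraries (3.62 to 3.71), and without it the median difference was 0.07, with 63.2% of genes above 0. When each library was centred on its own median, 147 genes were called (1.23%), with 77 higher (0.645%) and 70 lower (0.587%). The values of the 2 groups did not overlap in 6359 genes (53.3%), with KPP controls higher in 43% of all genes and lower in 10.3%, and this held for all 394 called genes. Because the groups do not overlap, the direction of these genes cannot turn when a library is left out. After centring 121 of them were also called. The number of calls depended on both LLC control libraries. Without LLC control 1 limma called 0 genes, with 2322 at an unadjusted p under 0.05 and a smallest adjusted p of 0.0698. Without LLC control 2 it called 0 genes, with 1765 at an unadjusted p under 0.05 and a smallest adjusted p of 0.0726. The fit on all 16 libraries also called 0 genes, with 1014 at an unadjusted p under 0.05, and the fit without the trend called 3. Leaving out KPP control 2 ended most of the 394 calls. Without KPP control 1 the number of calls was similar, but many of the 394 were not among them. Each call named below is therefore tied to the pooled spread of the control libraries. Counts of calls in a list are to be read against the 3.3% called over all genes. A list with 1 or 2 calls is not read as a result about that list. Where centring also ended the call of a gene named with its difference, this is said beside it or in the paragraph. A call lost only under another scaling is not marked. Klf2, Lpl, mt-Tp and Socs2 kept their calls after centring but were not called by voom with TMM on the recovered reads.

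Genes of the circadian clock differed in both directions. Per2, a repressor of the clock loop (chromosome 1, 91415982 to 91459324, GRCm38), had the smallest adjusted p of all genes. It stood at 4.33 and 4.29 in KPP controls, against 2.85 and 2.86 in LLC controls. The groups did not overlap, and each pair lay within 0.1 of a log2 unit. The difference was 1.45 ± 0.11 (adjusted p 0.00268), and it was among the 3 calls of the fit without the trend. In the other control groups, KPC (mixed strain) and C26 (CD2F1), Per2 ranged between 3.61 and 5.42, so the LLC controls were the lowest of the 8 control libraries.

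Arntl, the activator of the loop (chromosome 7, 113207465 to 113314126), ran the other way. It stood at 3.78 and 3.90 in KPP controls, against 4.40 and 4.51 in LLC controls, a difference of -0.62 ± 0.10 (adjusted p 0.0173). The KPP libraries were both lower than both LLC libraries. Nr1d2, a nuclear receptor that represses Arntl, stood at 7.36 and 7.36 in KPP controls, against 7.05 and 6.97 in LLC controls (0.35 ± 0.07, adjusted p 0.0345). Its call ended after centring. The other 14 of 17 measured core clock genes were not called, and the median of the 17 was 0.19, against 0.11 over all genes. Nr1d1, the close relative of Nr1d2, had 5.43 and 5.90 in KPP controls, against 6.15 and 6.20 in LLC controls, which is opposite in sign to Nr1d2 but did not pass (-0.51 ± 0.16, adjusted p 0.11). Per1 had a difference of 0.88 ± 0.31 (adjusted p 0.133) and Per3 of 0.47 ± 0.15 (adjusted p 0.101). Clock, the partner of Arntl, had -0.18 ± 0.08 (adjusted p 0.219).

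Among 13 genes that the clock drives, 2 were called, both higher, and the median difference was 0.31. Tef, a transcription factor of the same family as Dbp, had 7.69 and 7.93 in KPP controls, against 7.45 and 7.33 in LLC controls (0.42 ± 0.09, adjusted p 0.0452). Tspan4, a tetraspanin, had 2.73 and 3.06 in KPP controls, against 2.23 and 2.20 in LLC controls (0.68 ± 0.14, adjusted p 0.0356). Both calls ended after centring. Dbp, a clock output with a steep daily rhythm, stood at 5.91 and 6.42 in KPP controls, against 5.96 and 5.98 in LLC controls, and the groups overlapped (adjusted p 0.404).

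**Figure D1:**
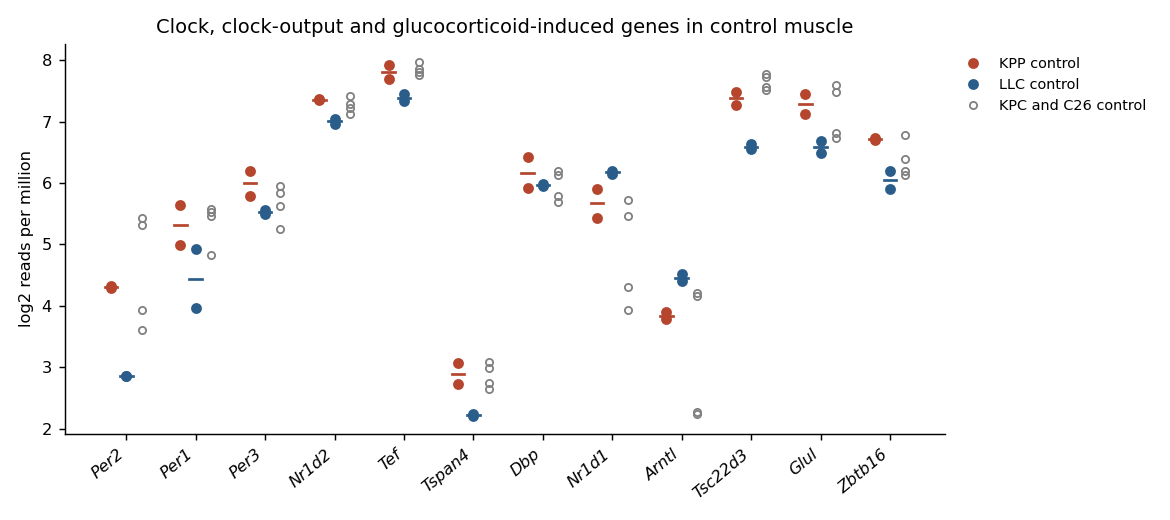
Log2 CPM (vertical axis) of 9 clock and clock-output genes and 3 glucocorticoid-induced genes (horizontal axis). Filled points are the KPP control and LLC control libraries, short lines are their means, and open points are the 4 KPC and C26 control libraries. Both KPP controls lie above both LLC controls for Per2 and below them for Arntl.

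Promoter windows are shown for clock and clock-output genes that were called, Arntl lower and the others higher. These genes were picked for their calls. Nr1d1, opposite in sign to Nr1d2, and Dbp, which overlapped between the groups, were not called. The windows were taken from RefSeq (GRCm38.p6), 250 bases before to 50 after a start, and 4 of 5 called clock and clock-output genes had an entry. Capitals mark the letters found by a search of both strands for the E-box CACGTG, to which ARNTL and CLOCK bind, and the half-site AGGTCA of the ROR and NR1D receptors. The D-box TTATGNAA, bound by DBP and TEF, was also searched and was not in these windows. Of 32851 promoter windows of this length, 7.15% hold the E-box, 16.3% the half-site and 3.38% the D-box, so a match is a description and not a binding site. Arntl window 1 held no match to any of the 3 motifs. Tspan4 had 2 windows, 1 with an E-box and 1 with no match, and they are not shown because the bases just after their starts were not found whole in a GENCODE transcript of the gene. The windows shown, picked for their matches, are Arntl window 2 on chr7:113207261-113207560 (plus strand), Nr1d2 on chr14:18239057-18239356 (minus strand), and Tef windows 1 and 2 on chr15:81802423-81802722 and chr15:81811164-81811463 (plus strand).
Arntl: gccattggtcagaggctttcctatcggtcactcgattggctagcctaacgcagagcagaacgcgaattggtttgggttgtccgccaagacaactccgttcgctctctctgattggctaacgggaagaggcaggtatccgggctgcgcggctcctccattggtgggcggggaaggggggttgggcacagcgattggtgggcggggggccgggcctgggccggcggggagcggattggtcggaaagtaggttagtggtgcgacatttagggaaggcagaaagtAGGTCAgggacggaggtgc
Nr1d2: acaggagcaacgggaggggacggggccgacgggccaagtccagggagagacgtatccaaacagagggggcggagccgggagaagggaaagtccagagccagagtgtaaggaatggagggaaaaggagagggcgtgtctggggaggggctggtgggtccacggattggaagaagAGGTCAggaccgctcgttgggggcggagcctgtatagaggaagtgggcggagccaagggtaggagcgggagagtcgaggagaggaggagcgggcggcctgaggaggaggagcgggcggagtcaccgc
Tef window 1: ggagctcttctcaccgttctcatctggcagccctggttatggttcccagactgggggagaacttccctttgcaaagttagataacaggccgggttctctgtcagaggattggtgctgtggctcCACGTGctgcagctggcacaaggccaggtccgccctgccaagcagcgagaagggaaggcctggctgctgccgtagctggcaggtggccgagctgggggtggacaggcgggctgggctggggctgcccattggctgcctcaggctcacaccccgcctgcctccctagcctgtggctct
Tef window 2: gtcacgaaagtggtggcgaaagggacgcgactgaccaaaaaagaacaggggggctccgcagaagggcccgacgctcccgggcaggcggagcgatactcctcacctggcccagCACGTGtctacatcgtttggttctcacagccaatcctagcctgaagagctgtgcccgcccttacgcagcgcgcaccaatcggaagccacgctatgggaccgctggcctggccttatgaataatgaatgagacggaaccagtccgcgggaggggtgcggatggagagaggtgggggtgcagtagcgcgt
The Nr1d2 and Arntl windows each held 1 half-site, and each Tef window held 1 E-box.

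Genes induced by glucocorticoids lay higher in KPP controls. Of 18 measured members, 3 were called higher and 0 lower, and the median difference was 0.55, against 0.11 over all genes. Tsc22d3, which encodes the anti-inflammatory leucine zipper protein GILZ, stood at 7.48 and 7.27 in KPP controls, against 6.63 and 6.55 in LLC controls (0.78 ± 0.10, adjusted p 0.0142). Its values in KPC and C26 controls were 7.52 to 7.78, so the LLC pair was the lowest. Glul, glutamine synthetase, had 7.12 and 7.45 in KPP controls, against 6.68 and 6.48 in LLC controls (0.70 ± 0.11, adjusted p 0.0173). Zbtb16, a zinc finger repressor, had 6.73 and 6.69 in KPP controls, against 5.90 and 6.20 in LLC controls (0.66 ± 0.13, adjusted p 0.0312), and its call ended after centring. Other members did not follow. Fkbp5, a cochaperone of the glucocorticoid receptor, overlapped between the groups (-0.05 ± 0.26, adjusted p 0.918). Cebpd stood at 2.73 and 4.38 in KPP controls, against 2.60 and 2.38 in LLC controls, so KPP control 2 stood apart from the other 3 libraries (adjusted p 0.216).

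Among 22 immediate early genes, 2 were called, both higher, with a median of 0.11, equal to that over all genes. Klf2, a factor of endothelial cells under flow, stood at 3.28 and 3.75 in KPP controls, against 2.44 and 2.57 in LLC controls (1.01 ± 0.18, adjusted p 0.024). Klf6 had 5.58 and 5.89 in KPP controls, against 4.88 and 5.14 in LLC controls (0.73 ± 0.14, adjusted p 0.0319), and its call ended after centring. Fos, which responds to handling and contraction, overlapped (0.16 ± 0.54, adjusted p 0.884). FoxO and insulin signalling gave 1 call of 21 (4.76%, against 3.3% over all genes), Foxo4 (0.54 ± 0.08, adjusted p 0.0169).

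Type I collagen was lower in KPP controls. Col1a1, a chain of type I collagen (chromosome 11, 94936224 to 94953042), stood at 7.37 and 6.92 in KPP controls, against 8.79 and 9.06 in LLC controls. The groups were far apart, and the difference was -1.78 ± 0.23 (adjusted p 0.0142). Col1a2, the other chain of type I collagen, had 7.76 and 7.55 in KPP controls, against 8.80 and 8.93 in LLC controls (-1.21 ± 0.19, adjusted p 0.0169). Col3a1, the type III chain, was lower without passing, at 7.87 and 8.04 in KPP controls, against 8.27 and 8.56 in LLC controls (-0.46 ± 0.18, adjusted p 0.165). Col15a1, a basement-membrane-associated collagen, had 5.32 and 5.38 in KPP controls, against 5.72 and 5.88 in LLC controls (-0.45 ± 0.09, adjusted p 0.0362). Of 37 measured matrix genes these 3 were called lower and 1 was called higher, and the median difference was -0.26, against 0.11 over all genes.

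The gene called higher was Ccn2, a secreted matricellular protein also known as CTGF. It stood at 4.12 and 4.67 in KPP controls, against 2.90 and 3.53 in LLC controls (1.19 ± 0.25, adjusted p 0.0378), and its call ended after centring. Basement membrane genes gave 1 call of 14, the proteoglycan perlecan (Hspg2), at 7.66 and 7.66 in KPP controls, against 8.20 and 8.30 in LLC controls (-0.59 ± 0.08, adjusted p 0.0142). Their median was -0.18. Timp4, an inhibitor of matrix proteases, was higher, at 5.77 and 5.64 in KPP controls, against 4.59 and 4.64 in LLC controls (1.09 ± 0.15, adjusted p 0.0152).

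Markers of the cells that could carry collagen were examined beside it. Of 11 measured tendon and cartilage markers 0 were called by limma, with 5 at an unadjusted p under 0.05, the median was -0.41, and their summed level was 277 and 307 CPM in KPP controls, against 352 and 386 in LLC controls. Tnmd, which defines tendon cells, overlapped between the groups (-0.12 ± 0.25, adjusted p 0.794). Fibroblast and fibro-adipogenic markers gave 1 call of 14, the receptor Pdgfrb (-0.39 ± 0.07, adjusted p 0.0236), with a median of 0.01 and summed levels of 691 and 933 CPM in KPP controls, against 913 and 749 in LLC controls. Smooth muscle and pericyte markers gave 1 call lower, the pericyte proteoglycan Cspg4 (-0.70 ± 0.10, adjusted p 0.0152), and 1 higher, the smooth muscle myosin Myh11 (0.55 ± 0.10, adjusted p 0.0297, call ended after centring), of 11. The part of tendon or fibroblast content in the collagen difference was not tested, and in bulk tissue fewer cells of a type and less RNA per cell cannot be told apart. The collagen genes also differed among the other controls. Col1a1 stood at 7.48 and 6.66 in the KPC controls and at 9.01 and 9.24 in the C26 controls, so the KPP pair lay with the KPC pair and the LLC pair near the C26 pair.

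**Figure D2:**
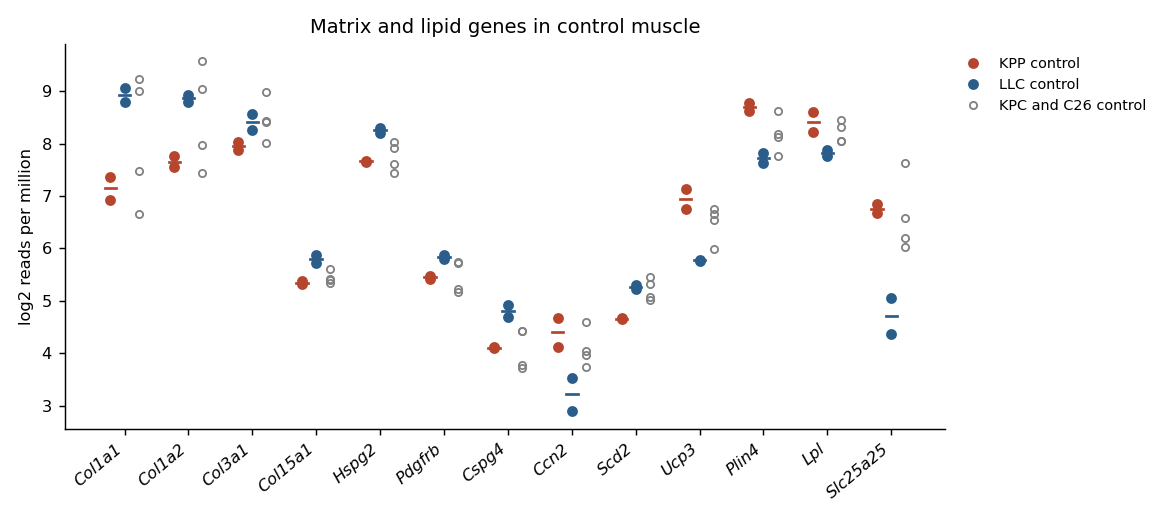
Log2 CPM (vertical axis) of matrix, vascular and lipid genes (horizontal axis) in control muscle. Filled points are KPP control and LLC control libraries with their means as short lines, and open points are the KPC and C26 control libraries. Col1a1 and Scd2 lie lower, and Ucp3, Plin4 and Slc25a25 higher, in both KPP controls than in both LLC controls.

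By their median, genes of fatty acid use lay higher in KPP controls. Of 23 measured genes of fasting and lipid use, 4 were called higher and 1 lower, with a median of 0.29, against 0.11 over all genes. After centring 1 was called higher and 1 lower, and quantile normalization or voom with TMM gave 0 higher and 1 lower. Less the median of all genes, the list stood at 0.18 in controls and at -0.37 between KPP and LLC cachectic muscle. Ucp3, a mitochondrial carrier that rises with fatty acid supply, stood at 7.13 and 6.74 in KPP controls, against 5.77 and 5.79 in LLC controls (1.16 ± 0.21, adjusted p 0.0235), and its call ended after centring. Lpl, the lipase that frees fatty acids from circulating triglyceride, had 8.22 and 8.60 in KPP controls, against 7.76 and 7.89 in LLC controls (0.59 ± 0.11, adjusted p 0.0297). The beta-oxidation enzymes Hadha (0.35 ± 0.06, adjusted p 0.0236) and Acadl (0.31 ± 0.07, adjusted p 0.0387) were also higher, and both calls ended after centring. Pdk2, a kinase that inhibits pyruvate dehydrogenase, was lower (-0.29 ± 0.06, adjusted p 0.0408). Its relative Pdk4, a classic fasting gene, stood at 8.14 and 8.13 in KPP controls, against 6.82 and 7.51 in LLC controls. It did not pass (0.97 ± 0.25, adjusted p 0.0666). The groups did not overlap, as in 53.3% of all genes.

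Slc25a25, a mitochondrial carrier of adenine nucleotides, had the second largest difference among the genes named by size. It stood at 6.84 and 6.67 in KPP controls, against 4.37 and 5.05 in LLC controls (2.05 ± 0.41, adjusted p 0.0345), and both KPP libraries were above both LLC libraries. The call ended after centring. The lipid droplet coat gene Plin4, which muscle also expresses, had 8.62 and 8.77 in KPP controls, against 7.83 and 7.62 in LLC controls (0.97 ± 0.15, adjusted p 0.0169), and the fatty acid carrier Fabp4, which capillaries also express, was 0.63 ± 0.13 higher (adjusted p 0.0362), a call that ended after centring. Both belong to an adipocyte list of 10 measured markers, whose median was 0.45 and whose summed level was 1990 and 1982 CPM in KPP controls, against 1498 and 1415 in LLC controls. Adipoq, the hormone that defines adipocytes, was low in all 4 libraries, at 0.47 and 0.67 in KPP controls, against 0.47 and 0.48 in LLC controls. The summed level of the list is not read as adipocyte content, which was not tested.

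On the side of lipid synthesis and uptake, 2 of 23 genes were called, both lower, and the median was -0.01. One was Scd2, a fatty acid desaturase, which had 4.64 and 4.67 in KPP controls, against 5.30 and 5.23 in LLC controls (-0.61 ± 0.08, adjusted p 0.0142). Scd1, the desaturase of the same family that is better known in liver and fat, overlapped between the groups (-0.01 ± 0.32, adjusted p 0.991). By limma, glycolysis and glycogen genes gave 0 calls of 26 (5 at an unadjusted p under 0.05), the tricarboxylic acid cycle 0 of 17 (7), and nuclear genes of oxidative phosphorylation 0 of 58 (11). Their medians were -0.01, 0.13 and 0.11.

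Mitochondrially encoded RNA took a smaller share of the KPP libraries, at 10.5% and 9.1% of reads in KPP controls, against 12.8% and 13% in LLC controls. The 2 mitochondrial ribosomal RNAs were called lower. The small one, mt-Rnr1, stood at 12.04 and 11.58 in KPP controls, against 12.74 and 12.71 in LLC controls (-0.92 ± 0.13, adjusted p 0.0152). The large one, mt-Rnr2, had 15.02 and 14.67 in KPP controls, against 15.61 and 15.58 in LLC controls (-0.75 ± 0.13, adjusted p 0.0236), and its call ended after centring. It took 3.33% and 2.61% of the reads in KPP controls, against 5.01% and 4.91% in LLC controls. The other 13 of 15 listed mitochondrially encoded genes, those of the respiratory chain, were not called. The proline transfer RNA mt-Tp was called higher (1.22 ± 0.21, adjusted p 0.0231). A nuclear gene annotated as ribosomal RNA, CT010467.1, was lower as well, at 0.44 and 0.64 in KPP controls, against 1.87 and 1.84 in LLC controls (-1.32 ± 0.21, adjusted p 0.0176). These libraries were depleted of ribosomal RNA before sequencing, and the part of depletion efficiency in these 3 differences was not tested. With library totals taken without mitochondrially encoded genes, 195 genes were called, 149 higher and 46 lower, and the median difference was 0.06.

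Small nuclear RNAs of the spliceosome stood out in the opposite direction. Of 18 tested genes annotated as snRNA, 10 were called, all higher, and the median difference was 1.74, against 0.11 over all genes. After centring 6 of the 18 were called, all of them U2, and quantile normalization or voom with TMM gave 5. Without KPP control 1 the count was 4, without KPP control 2 it was 3, and without either LLC control it was 0. This list was chosen after its values were seen. By length all 18 are U2 (191 bases, 8 genes) or U1 (164 bases, 10 genes). The sequences are printed because the copies are nearly identical, which limits what a value per copy can mean. The letters come from GENCODE M21 transcripts on GRCm38, Rnu1a1 at chr11:87422867-87423030 and Rnu2-10 at chr11:101658238-101658428, both on the plus strand. Capitals mark the stretch of U1 that pairs with the 5′ splice site and the stretch of U2 that pairs with the branch point of an intron.
Rnu1a1: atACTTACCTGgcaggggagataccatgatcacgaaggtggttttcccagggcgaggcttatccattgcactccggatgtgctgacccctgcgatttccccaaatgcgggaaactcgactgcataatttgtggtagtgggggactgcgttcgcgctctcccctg
Rnu2-10: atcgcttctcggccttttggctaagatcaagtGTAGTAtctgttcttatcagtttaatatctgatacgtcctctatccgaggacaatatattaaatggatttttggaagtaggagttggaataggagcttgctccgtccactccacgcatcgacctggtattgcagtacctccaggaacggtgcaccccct
Of the 10 U1 genes, 7 are identical to Rnu1a1 (itself included), and the others differ from it by 1 base at most. Of the 8 U2 genes, 4 are identical to Rnu2-10 (itself included), and the others differ by up to 3 bases. Reads from identical copies cannot be assigned to a copy, so each copy's value is uncertain and the sums are given. For the same reason calls of several copies are not separate results.

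The 8 U2 genes summed to 54.2 and 38.1 CPM in KPP controls, against 12.7 and 11.6 in LLC controls. Both KPP libraries were far above both LLC libraries. All 8 were called, with differences from 1.31 to 2.45, and Rnu2-10 stood at 2.38 and 2.11 in KPP controls, against -0.05 and 0.14 in LLC controls (2.20 ± 0.27, adjusted p 0.0135). The 10 U1 genes summed to 67.1 and 33.9 CPM in KPP controls, against 11.5 and 19.1 in LLC controls. The groups did not overlap, the replicates of each were well apart, and 2 of the 10 were called, with differences from 1.41 to 1.89. Over all 18 genes the KPC and C26 controls summed to 22.9 to 49.8 CPM, above the lower LLC value of 24.4 in 3 of 4 libraries and below both KPP values of 122 and 72.2. Other short RNAs did not follow. Of 15 tested snoRNA and scaRNA genes, 1 was called, Snord17 (1.35 ± 0.25, adjusted p 0.0252, call ended after centring), and the median was 0.09. In the list of other non-polyadenylated and nuclear RNAs, which includes Malat1 (0.04 ± 0.09, adjusted p 0.832), limma called 0 of 11, with 4 at an unadjusted p under 0.05 and a median of 0.16. The part of fragment length or library preparation in the snRNA difference was not tested.

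**Figure D3:**
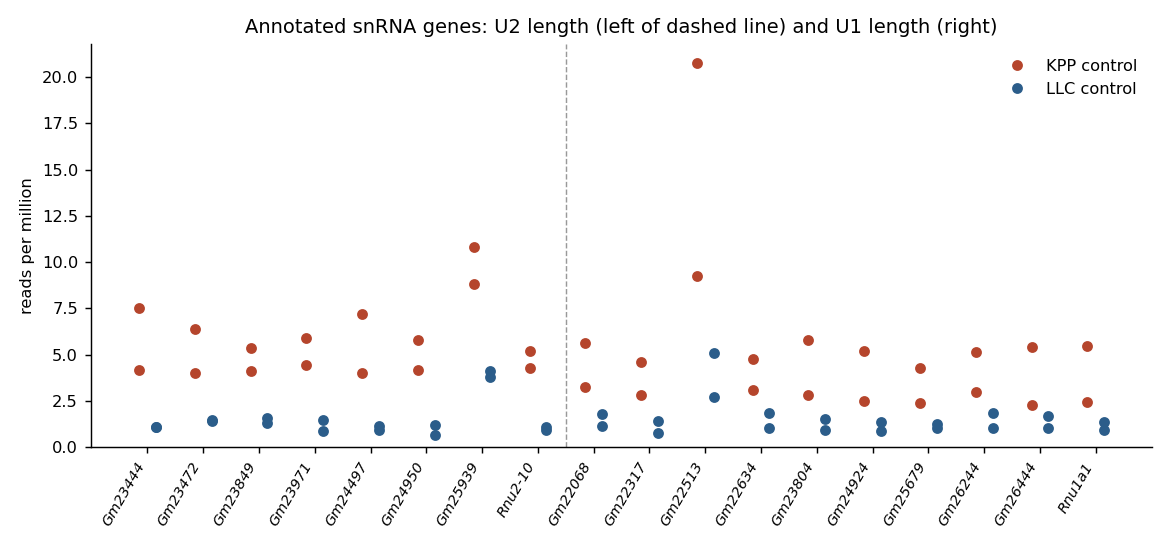
CPM (vertical axis) of 18 annotated snRNA genes (horizontal axis), U2-length genes left of the dashed line and U1-length genes right of it. Red points are the KPP control libraries and blue points the LLC control libraries. For each U2-length gene both KPP controls lie above both LLC controls.

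Messenger RNAs of several splicing factors were also called higher in KPP controls. In the Srsf, Hnrnp and Rbm families, a list chosen after its values were seen, 8 of 66 tested genes were called higher and 0 lower, and the median was 0.20, against 0.11 over all genes. Hnrnpm, an RNA-binding protein that regulates exon use, stood at 6.34 and 6.58 in KPP controls, against 5.79 and 5.83 in LLC controls (0.64 ± 0.09, adjusted p 0.0152). Srsf6, a serine and arginine-rich splicing factor, had 5.76 and 5.95 in KPP controls, against 5.34 and 5.38 in LLC controls (0.50 ± 0.08, adjusted p 0.0185). The other 6 were Rbm28, Srsf11, Rbmx, Rbm5, Rbm39 and Hnrnpa3, and after centring 2 of the 66 were called. Rsrp1, an arginine and serine-rich protein gene and one of the largest differences, had 7.83 and 8.14 in KPP controls, against 6.89 and 6.81 in LLC controls (1.13 ± 0.19, adjusted p 0.0204). Further genes of nuclear RNA processing, also picked after their values were seen, were called higher: the cyclin Ccnl2 (0.73 ± 0.08, adjusted p 0.0104), the RNA helicase Ddx5 (0.52 ± 0.06, adjusted p 0.0135) and Luc7l3, a U1-associated protein (0.52 ± 0.08, adjusted p 0.0152).

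Endothelial genes were examined next. Of 14 endothelial markers 1 was called, Cldn5, a tight junction protein, at 2.90 and 2.75 in KPP controls, against 3.47 and 3.56 in LLC controls (-0.69 ± 0.12, adjusted p 0.0236). The defining markers Pecam1 (0.15 ± 0.11, adjusted p 0.422) and Cdh5 (-0.14 ± 0.10, adjusted p 0.412) were not called, and the markers summed to 652 and 680 CPM in KPP controls, against 617 and 646 in LLC controls. Genes known in capillaries but outside that list, and picked after their values were seen, were called higher. Ly6c1, a surface protein of microvessels, stood at 5.49 and 5.51 in KPP controls, against 4.87 and 4.70 in LLC controls (0.71 ± 0.11, adjusted p 0.0169). Kank3 had 4.90 and 5.14 in KPP controls, against 4.08 and 4.11 in LLC controls (0.93 ± 0.12, adjusted p 0.0142), and the adhesion receptor Adgrf5 had 7.62 and 7.72 in KPP controls, against 7.14 and 7.08 in LLC controls (0.56 ± 0.07, adjusted p 0.0142). Ly6c2, a near copy of Ly6c1 with which reads may be shared, had 1.12 ± 0.23 (adjusted p 0.0363), and its call ended after centring.

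Further genes were named by the size of their difference. Fgfr3, a receptor for fibroblast growth factors, stood at 2.80 and 2.42 in KPP controls, against 0.83 and 1.25 in LLC controls (1.58 ± 0.24, adjusted p 0.0152). Dusp10, a phosphatase that turns off stress-activated kinases, stood at 4.38 and 4.84 in KPP controls, against 5.77 and 6.14 in LLC controls (-1.34 ± 0.15, adjusted p 0.0124). Socs2, an inhibitor of growth hormone signalling, was lower (-0.74 ± 0.14, adjusted p 0.0319), as was Vgll2, a muscle-specific cofactor of TEAD factors (-0.74 ± 0.11, adjusted p 0.0152). The remaining genes lower by size were Trp53i11, Agt (angiotensinogen), Sox4, Rara (a retinoic acid receptor) and Heyl (a Notch target), with differences of -1.16, -0.80, -0.78, -0.75 and -0.82. The remaining genes higher by size were Tmem181b-ps, Slc26a10, Banp and Tcim, with differences of 1.27, 1.15, 1.16 and 1.15, and the calls of Banp and Tcim ended after centring.

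Skeletal actin Acta1, picked after its value was seen, was lower, at 13.42 and 13.57 in KPP controls, against 14.06 and 13.90 in LLC controls (-0.48 ± 0.10, adjusted p 0.0349). H19, an imprinted noncoding RNA of growing and regenerating muscle, was higher, at 8.22 and 8.34 in KPP controls, against 7.67 and 7.69 in LLC controls (0.60 ± 0.10, adjusted p 0.0176), and was the only call among 14 developmental and immature muscle genes. Its neighbour Igf2, imprinted in the opposite sense, overlapped (0.05 ± 0.13, adjusted p 0.836). Id3, a target of bone morphogenetic proteins, was higher (0.76 ± 0.15, adjusted p 0.0305, call ended after centring) and was the only call among 16 myostatin and TGF-beta family genes. Mstn, the growth inhibitor myostatin, was not called (-0.21 ± 0.13, adjusted p 0.36). Heat shock genes gave the cochaperone Bag3 lower (-0.67 ± 0.11, adjusted p 0.0176) and the mitochondrial chaperone Hspd1 higher (0.32 ± 0.07, adjusted p 0.0367, call ended after centring), of 19.

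Groups known to change in wasting muscle were counted between these controls. Of 18 atrophy ubiquitin ligases limma called 0, with 7 at an unadjusted p under 0.05 and a median of 0.18. Over all genes 24.3% had an unadjusted p under 0.05, and at a share called of 3.3% lists of this size hold few calls or none, so nothing particular to these lists is read from a count of 0. Fbxo32 (atrogin-1) stood at 8.36 and 8.73 in KPP controls, against 8.49 and 7.93 in LLC controls (0.34 ± 0.20, adjusted p 0.326). Trim63 (MuRF1) had 7.15 and 7.60 in KPP controls, against 7.29 and 7.33 in LLC controls (0.06 ± 0.16, adjusted p 0.838). Both pairs overlapped. By limma, autophagy and lysosome genes gave 0 calls of 25 (7 at an unadjusted p under 0.05), neuromuscular junction genes 0 of 13 (4), interferon-stimulated and antigen presentation genes 0 of 35 (0), and acute-phase genes 0 of 12 (3). Metallothionein and zinc genes gave 0 of 6 (0), p53 and stress genes 0 of 13 (5), and the integrated stress response 0 of 10 (1). Fast fibre genes gave 0 calls of 16 (2 at an unadjusted p under 0.05) with a median of -0.01, and slow fibre genes 0 of 11 (3) with a median of 0.20. Myh7, the slow myosin, stood at 3.47 and 2.48 in KPP controls, against 1.92 and 2.10 in LLC controls, and did not pass (0.97 ± 0.36, adjusted p 0.147). Among cytosolic ribosomal proteins 4 of 56 were called higher, including Rpl6, Rps13 and Rps19 (0.32 to 0.38), with a median of 0.13, and after centring 0 of them was called by limma.

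Markers of blood and immune cells gave no calls. Erythroid genes gave 0 calls of 7 (2 at an unadjusted p under 0.05) with a median of 0.50. Less the median of all genes this was 0.39, and it was -0.02 without KPP control 1 and 0.60 without KPP control 2. Hba-a1, an alpha globin, stood at 6.16 and 5.65 in KPP controls, against 5.30 and 5.49 in LLC controls (0.51 ± 0.20, adjusted p 0.158). Macrophage markers gave 0 calls of 10 (1 at an unadjusted p under 0.05), summing to 61 and 99.4 CPM in KPP controls, against 62.3 and 82.1 in LLC controls. Schwann and nerve markers gave 0 of 7 (1), and satellite cell and myogenic markers gave 1 of 10, Heyl. Of the lymphocyte and neutrophil list and of the skin list, 1 gene each could be tested, and neither was called. In every list with 0 calls by limma on the deposited values, voom with TMM on the recovered reads also called 0. Quantile normalization called 1 gene lower in the glycolysis and glycogen list. Some of these lists, such as the tricarboxylic acid cycle, held calls when a KPP control was left out.

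**Figure D4:**
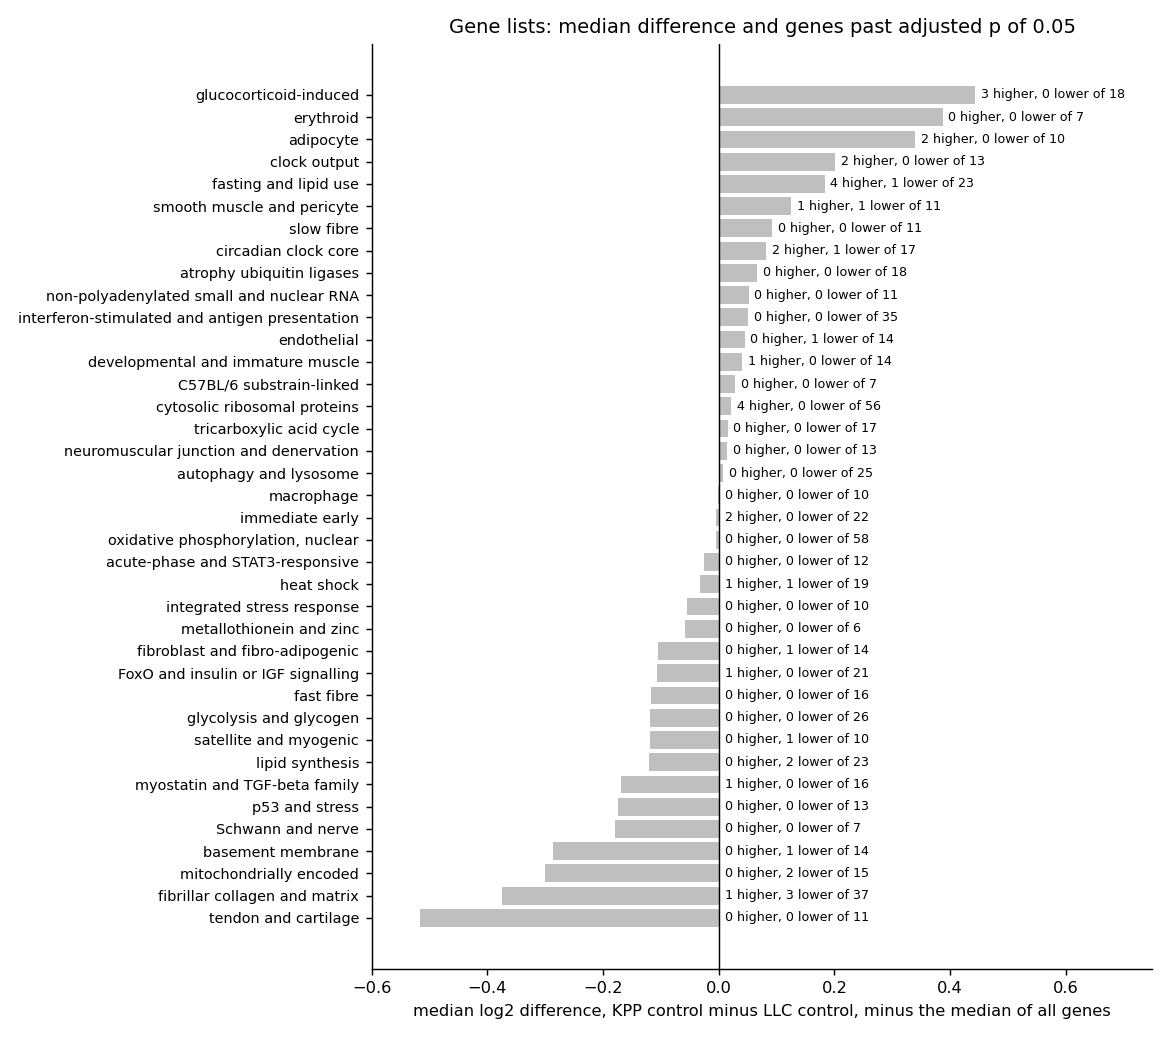
Median log2 difference of the gene lists, without those chosen after their values were seen, KPP control minus LLC control, less the median of all genes (horizontal axis), with the number of members called higher and lower beside each bar. Among the lists drawn, glucocorticoid-induced genes lie at the top with 3 higher of 18, and fibrillar collagen and tendon genes at the bottom.

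Genetic background was looked at through genes that differ between C57BL/6 substrains and through the Ptf1a locus that drives Cre in the KPP model. Nnt, a mitochondrial transhydrogenase whose gene is known to carry a deletion in C57BL/6J but not in other substrains, stood at 3.90 and 4.27 in KPP controls, against 4.06 and 3.98 in LLC controls (0.07 ± 0.12, adjusted p 0.76). In the KPC and C26 controls, of other strain labels, it stood between 5.88 and 6.13, so both C57BL/6J control groups were lower. The KPP cachectic libraries, also labelled C57BL/6J, stood apart from each other at 6.30 and 4.72, against 4.30 and 4.41 in LLC cachectic libraries. The value of KPP cachectic 1 lay above those of the KPC and C26 controls, unlike the other libraries labelled C57BL/6J in these cohorts. This rests on Nnt alone and sets a cachectic library against controls. Whether its strain label is right was not tested. Of 7 tested substrain-linked genes limma called 0, with 3 at an unadjusted p under 0.05. Within 10 Mb of Ptf1a, 2 of 117 genes were called (Nsmf and Tsc1, both calls ending after centring), which is 1.71%, against 3.3% over all genes. Across the autosomes the share called ran from 1.73% on chromosome 19 to 4.8% on chromosome 16. Of 7 tested genes on chromosome Y, 2 were called. Ddx3y (0.34 ± 0.07, adjusted p 0.0307) and Eif2s3y (0.46 ± 0.09, adjusted p 0.0297) were higher, with both calls ending after centring, and Xist was not among the tested genes. Ddx3y stood at 6.68 and 6.72 in KPP controls, against 6.35 and 6.38 in LLC controls. Eif2s3y stood at 5.72 and 5.90, against 5.42 and 5.29. The KPC and C26 controls had 6.43 to 6.53 and 5.35 to 5.48, so Y-linked RNA was present in every control library.

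The KPC and C26 controls place the difference against other tumour-free muscle. In 142 of the 394 called genes (36%) the KPP pair alone lay wholly outside the range of the 4 KPC and C26 controls, against 13.6% of all genes. In 102 (25.9%) the LLC pair alone did, against 16.6% of all genes, and in 105 (26.6%) both pairs did, against 8.75% of all genes. The called genes were selected for a gap between the KPP and LLC pairs, with a spread taken partly from these KPC and C26 libraries. Shares above those of all genes follow in part from that selection, and nothing further is read from them. With the same fit and threshold, 301 genes were called between KPP and KPC controls and 673 between KPC and LLC controls, against 2188 between KPP and C26 controls and 1654 between C26 and LLC controls. These comparisons share libraries with the one described here. Per2, Tsc22d3 and Klf2 are genes in which the LLC pair was the lowest of the 4 control pairs, and Scd2 is a gene in which the KPP pair was.

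The same cohorts can be compared in cachectic muscle, in libraries that the control comparison did not use, although there tumour model and cohort cannot be told apart. In the fit on all 16 libraries, 515 genes were called between KPP cachectic and LLC cachectic muscle (4.32%), 379 higher (3.18%) and 136 lower (1.14%). Because the Nnt level of KPP cachectic 1 was unlike that of the other KPP and LLC libraries, results are also given without it. The count of 515 was 82 without KPP cachectic 1, 108 without KPP cachectic 2, 194 without LLC cachectic 1 and 2452 without LLC cachectic 2. Of the 394 genes called in controls, 302 (76.6%) had the same sign in cachectic muscle, against 56.3% of all genes. Without KPP cachectic 1 these were 277 (70.3%), against 53.7% of all genes. With all libraries, 273 of the 348 genes higher in KPP controls and 29 of the 46 lower genes had the same sign. The 348 genes higher in KPP controls had a median cachectic difference of 0.28, and the 46 lower genes one of -0.26, against 0.03 over all genes. Without KPP cachectic 1 the medians were 0.21 and -0.19, against 0.01 over all genes. Across 11934 genes, which are not independent replicates, the differences correlated at 0.259, and at 0.18 without KPP cachectic 1. In both comparisons 37 genes were called in the same direction, which is 9.39% of the control calls and 7.18% of the cachectic calls. Without KPP cachectic 1 there were 6 such genes, Adamtsl4, Fam193b, Firre, Ggnbp1, Nexn and Rasgrp2.

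Those 37 included mt-Rnr1, mt-Rnr2 and CT010467.1 and 3 of the 10 snRNA genes called in controls. In cachectic muscle mt-Rnr1 stood at 11.10 and 11.06 in KPP, against 12.12 and 12.19 in LLC (-1.07, adjusted p 0.0278). Rnu2-10 had 2.86 and 1.60 in KPP cachectic muscle, against 0.16 and 0.72 in LLC cachectic muscle (1.79, adjusted p 0.0407). Timp4 (0.85, adjusted p 0.0289), Myh11 (0.68, adjusted p 0.0415) and Rara (-0.83, adjusted p 0.0378) were also called in the same direction. Without KPP cachectic 1 none of these calls was left by limma, with differences of -1.10 for mt-Rnr1 (adjusted p 0.104), 1.16 for Rnu2-10 (adjusted p 0.223), 1.06 for Timp4 (adjusted p 0.0513), 0.67 for Myh11 (adjusted p 0.153) and -0.72 for Rara (adjusted p 0.17). Per2 had a cachectic difference of 1.02 (adjusted p 0.137) and Arntl one of -1.16 (adjusted p 0.0568), with the signs seen in controls but without passing. Nr1d2, Tef and Tspan4 also kept their sign without passing, at 0.20, 0.08 and 0.40. Other clock genes did not follow. Nr1d1, at -0.51 in controls, had 0.40 in cachectic muscle (adjusted p 0.541), called in neither. Dbp, not called in controls, was called higher in cachectic muscle (1.90, adjusted p 0.00865). Col1a1 had -1.12 (adjusted p 0.39), at 3.44 and 3.76 in KPP cachectic muscle, against 4.01 and 5.43 in LLC cachectic muscle. Ucp3 (0.01, adjusted p 0.997) and Dusp10 (-0.05, adjusted p 0.946) had small cachectic differences, which were -1.39 (adjusted p 0.266) and 0.55 (adjusted p 0.334) without KPP cachectic 1. The test of the difference between the control and the cachectic contrast passed in 4 of all genes (0.0335%, all lower), Mirg, Sntb1, Fhl1 and Adamtsl5, and in 0 of the 394 by limma, also without KPP cachectic 1, so the control difference is not shown to change with the tumour for any of them. Mib1 and Lonrf1, picked for their values, were the 2 genes called in opposite directions, with control differences of 0.41 and 0.52 and cachectic differences of -0.73 and -0.80. Centring ended the control call of both, and without KPP cachectic 1 the cachectic call of Lonrf1 was lost.

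**Figure D5:**
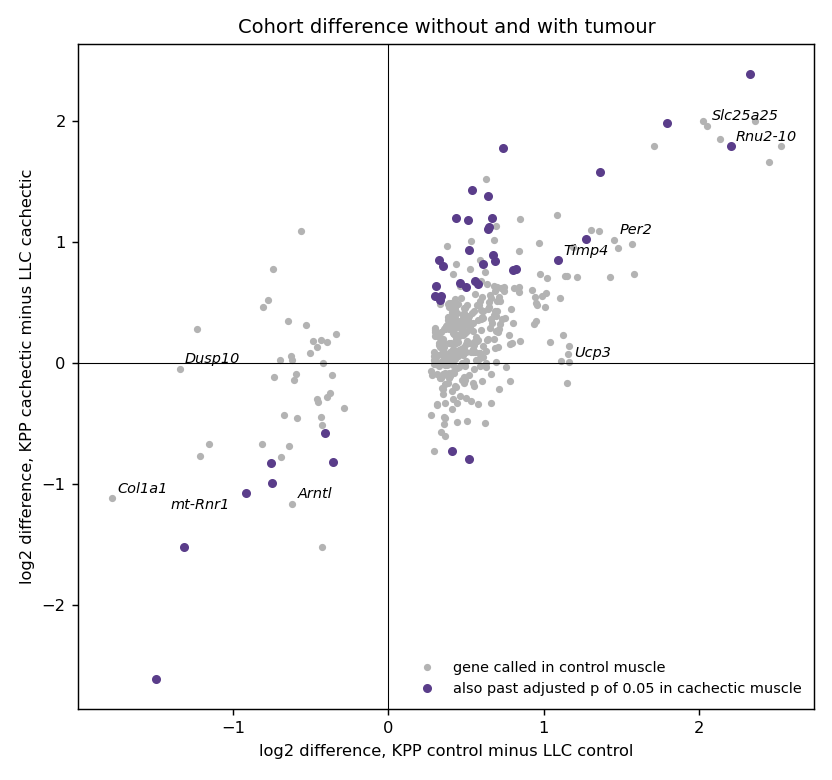
Log2 difference of KPP cachectic minus LLC cachectic muscle (vertical axis) against that of KPP control minus LLC control muscle (horizontal axis), for the 394 genes called in controls. Purple points also passed in cachectic muscle. Per2 lies at 1.45 and 1.02, Col1a1 at -1.78 and -1.12, and Ucp3 at 1.16 and 0.01.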

How the data were processed

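RNA came from frozen tibialis anterior by Trizol extraction and, after depletion of ribosomal RNA, was made into Illumina libraries, per the labels' protocols. The submitters' processing notes name GRCm38, featureCounts 1.4.5 and limma, while aligner, annotation and handling of strand are not stated there. Log2 values of 12021 genes were deposited by the authors. Each library's total was inferred from its lowest value, taken as 0 reads. Raising 2 to each value, scaling by that total and subtracting 0.5 gave whole reads for 100% of values (tolerance 0.001). The deposited values are therefore log2 CPM (an offset of 0.5 on each count), and a change is relative to each library's total. Of the genes, 11996 matched GENCODE M21 by ID.

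Genes were kept where 2 or more of the 4 libraries had a log2 value of 0 or above. limma 3.58.1 (R 4.3.3) was fitted with a mean per group and a trended, moderated spread, on the 8 control libraries for the control comparison and on all 16 for the cachectic one and for the difference between them. The code was tested on simulated data. The genes and lists were chosen with earlier results of these data known, so no list is tested as such. The text names the 15 largest higher and lower called genes (mean log2 value of at least 1, no overlap, no predicted genes), up to 4 called members of each list, and a set of genes named whatever their values. Alternatives were other scalings (centring, quantile, voom with TMM on the recovered reads), filters, spreads and thresholds, a replicate block, each library left out and, chosen after seeing the data, totals without mitochondrially encoded genes and a fit without the C26 controls. Some genes that these rules take are not reported here.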

Additional observations from a re-analysis of the deposited data

Results flagged for a closer look

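In 4 genes the cohort difference in control muscle differed from that in cachectic muscle by a test of that difference (limma, 16 libraries), and in each the larger difference was in cachectic muscle. None of them was called between KPP and LLC controls. Mirg, a noncoding RNA of an imprinted cluster, stood at 2.95 and 3.76 in KPP cachectic muscle, against -0.43 and 0.15 in LLC cachectic muscle, and at 1.44 and 1.20 in KPP controls, against 1.23 and 1.38 in LLC controls. Its control difference minus its cachectic difference was -3.48 ± 0.42 (adjusted p 0.00882). Sntb1, a syntrophin, had -2.92 ± 0.30 (adjusted p 0.0036), Fhl1, a LIM-domain protein of muscle, -2.69 ± 0.38 (adjusted p 0.0312), and Adamtsl5, a secreted matrix protein, -1.85 ± 0.22 (adjusted p 0.00882). Their control differences were -0.32, 0.39 and 0.05, against cachectic differences of 2.60, 3.08 and 1.90. The count of 4 was 1 without KPP control 1 or without LLC control 2, 8 without either KPP cachectic library and 1264 without LLC cachectic 2. All 4 were also called without KPP cachectic 1, at -3.89, -3.01, -2.97 and -1.92 for Mirg, Sntb1, Fhl1 and Adamtsl5. KPP cachectic 1 is the library with an Nnt level above those of the other KPP and LLC libraries.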

How the results depend on the processing

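The number of calls, 394 (348 higher, 46 lower), moved with the alternatives. Limma called 0 genes in the fit on all 16 libraries and 3 without the trend (2 higher, 1 lower). The 4 libraries alone gave 137 (112 and 25), centring 147 (77 and 70), quantile normalization 128 (72 and 56) and voom with TMM 130 (69 and 61). An adjusted p of 0.10 gave 1136 (993 and 143), and a log2 difference of at least 1 gave 43 (36 and 7). Chosen after seeing the data, totals without mitochondrially encoded genes gave 195 (149 and 46) and the fit without the C26 control pair 202 (166 and 36). Leaving out a library gave 0 to 405 calls (0 to 359 higher, 0 to 46 lower), with 0 without either LLC control. In these fits the lone sample is assumed to vary like the other groups. No filter, a mean log2 value of at least 2, vooma weights and robust variances gave 367 to 525. Leaving out a library gave 82 to 2452 cachectic calls, against 515, and 1 to 1264 calls for the difference between contrasts, against 4. Replicate numbers did not pair the samples (correlation of replicate differences 0.0039), and with the replicate block 377 genes were called, 429 in cachectic muscle and 6 for the difference between contrasts. Of the 60 named genes called, 25 lost their call after centring and 47 without KPP control 2. The cause of these changes was not tested.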
